A study of Mus musculus with 2 samples.

Results

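The collagen genes are the 44 protein-coding mouse genes named Col, a type number, a and a chain number, found in both gene tables by gene identifier without version, out of 43346 genes measured. Total RNA-seq measured them in whole midbrain of B6NCrl mice, taken 11.5 days into embryonic development, a stage of dividing neuroepithelium and early neurons. The study held 1 group of untreated, healthy embryos of mixed sex with no treatment or genotype compared, and 2 biological replicates. Midbrains of 109 embryos were pooled for replicate 1 and of 88 for replicate 2, so neither library can show variation between single embryos. The input was 10 ng of RNA over 200 nt in length. Levels are given in TPM, the length-corrected abundance of a gene relative to all transcripts, as deposited for each library.

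Collagens are extracellular proteins built from 3 chains wound into a helix, in which glycine takes the third place of each Gly-X-Y repeat. Fibrillar collagens (types I, II, III, V and XI among others) form the fibres of connective tissue. Type IV collagen forms the sheet-like network of basement membranes, which in the embryonic brain lie under the pia around the neural tube and around vessels. The remaining classes attach to fibres, make beaded or hexagonal networks, or span the cell membrane. Fibrillar chains are classically made by mesenchymal cells, so in dissected midbrain tissue they are known from the meninges and vessel walls, while neuroepithelium is known for type II and for some minor collagens.

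The repeat can be read in the genes themselves. The 4 fibrillar chains with the highest levels here are shown by the first 54-base exon that begins on a glycine codon and carries it in 6 consecutive repeats, with the glycine codons in capitals, as annotated in GENCODE M21 on mm10.
Col3a1 exon 6, chr1:45325360-45325413, plus strand: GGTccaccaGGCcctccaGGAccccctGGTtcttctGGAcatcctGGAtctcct
Col1a2 exon 8, chr6:4515481-4515534, plus strand: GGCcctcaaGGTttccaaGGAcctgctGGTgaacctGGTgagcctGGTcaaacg
Col1a1 exon 8, chr11:94939904-94939957, plus strand: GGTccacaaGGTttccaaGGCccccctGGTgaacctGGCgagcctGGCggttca
Col2a1 exon 6, chr15:97998545-97998598, minus strand: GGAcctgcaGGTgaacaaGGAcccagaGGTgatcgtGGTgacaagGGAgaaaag
In the 11 fibrillar genes, 305 of 627 internal coding exons (48.6%) were exactly 54 bases long. In the 6 type IV genes 12 of 284 were (4.23%), and over all protein-coding genes 1166 of 158965 (0.734%). Exon lengths that are multiples of 9 bases, which hold whole Gly-X-Y units, made up 83.9% of fibrillar, 47.2% of type IV and 14.3% of all internal coding exons. The longest unbroken run of Gly-X-Y units was 216 to 344 units in the fibrillar genes and 39 to 66 units in the type IV genes, whose repeat is interrupted. These are properties of the annotation's longest coding transcript of each gene, and not of the libraries.

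Of the 44 collagen genes, 27 (61.4%) reached 1 TPM in both libraries. Over all genes the share was 32.1%, and over protein-coding genes, to which every collagen gene belongs, it was 58.2%, so the share of collagen genes detected lay near that of protein-coding genes. The median collagen level was 2.41 TPM in replicate 1 and 2.24 TPM in replicate 2, against 3.44 and 3.47 TPM for protein-coding genes. The levels were concentrated in a few members. All collagen genes together held 888 TPM in each library, 0.105% of gene TPM in replicate 1 and 0.104% in replicate 2, and the 5 highest held 76.7% and 75.7% of that. Collagen genes took 109233 expected counts in replicate 1, 0.281% of counts on genes (95% Wilson interval 0.279% to 0.283%), and 133648 in replicate 2, 0.291% (0.289% to 0.292%). These intervals cover counting error only, since the protocol amplifies cDNA and reads are not independent molecules.

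**Figure D1:**
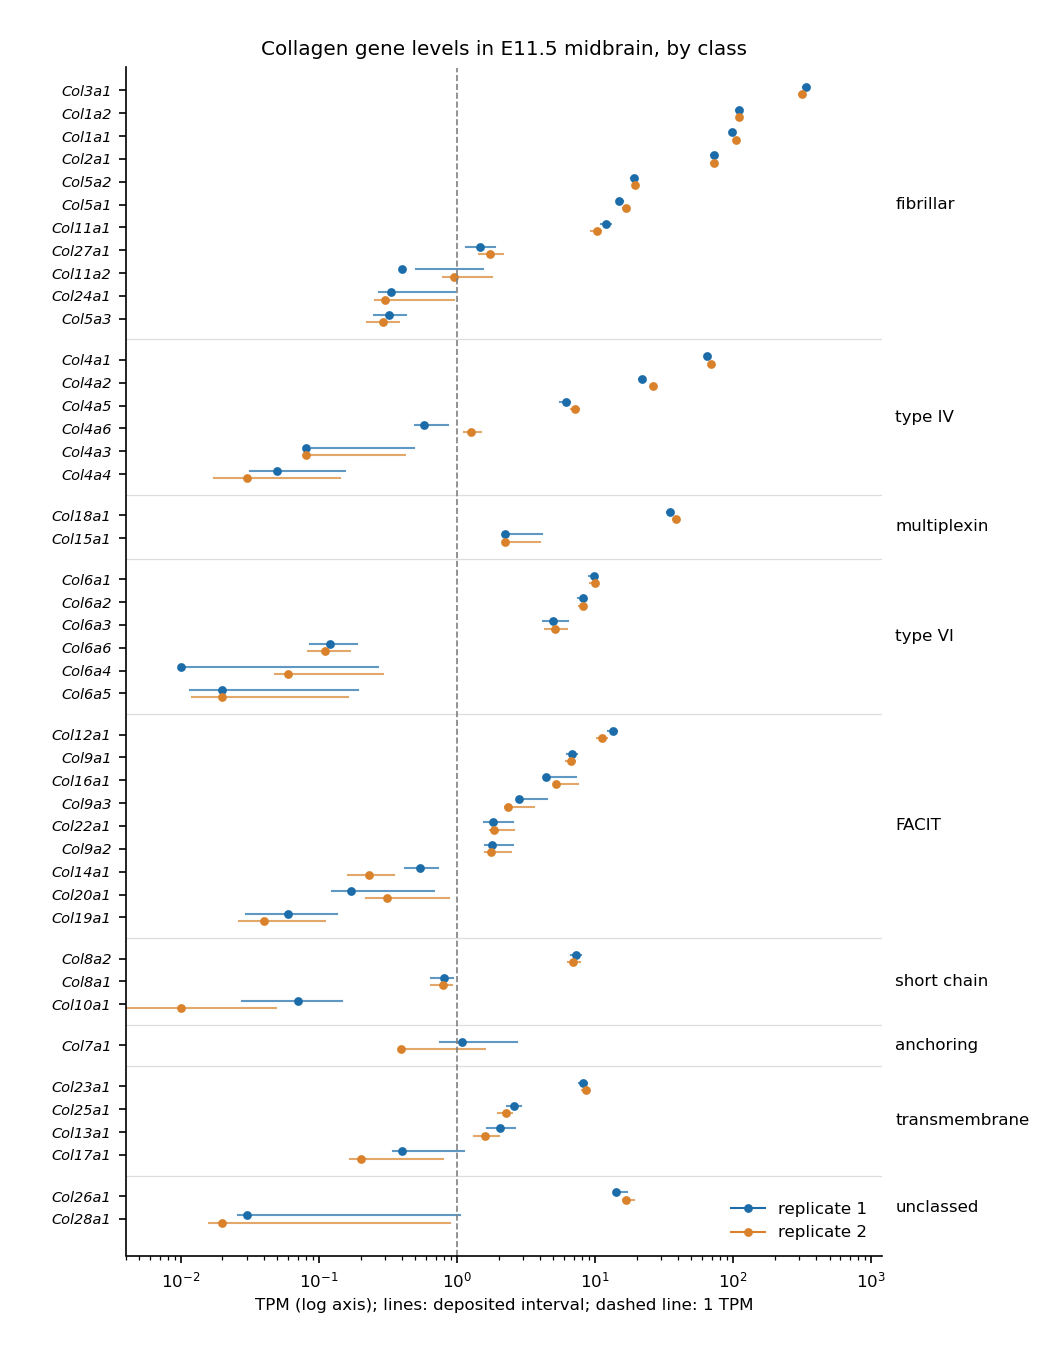
TPM of each of the 44 collagen genes (log axis) in replicate 1 and replicate 2, grouped by class, with lines for the deposited interval and a dashed line at 1 TPM. The levels run from over 300 TPM for Col3a1 to under 0.1 TPM for 7 members in both libraries, and the libraries lie close together for the 27 members above 1 TPM in both.

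The labelled tissue was checked with patterning genes chosen after their values were known. Otx2, a forebrain and midbrain gene, had 169.4 and 171.3 TPM in replicates 1 and 2, En1, a midbrain and anterior hindbrain gene, had 4.94 and 6.29 TPM, and Hoxa2, a hindbrain gene, had 0.21 and 0.12 TPM. The tables held 41760197 and 49256468 expected counts, of which 38884247 and 45975100 lay on genes, and the rest was almost all spike-in RNA added to the samples. Counts of the replicates differed beyond sampling noise, with a chi-square of 11.5 per degree of freedom over 39 collagen genes and 10.3 over 17148 genes, so the tables were not treated as copies of 1 library. With 2 libraries of 1 group, an exact permutation test over samples cannot give p below 0.5, and chains were compared by the deposited intervals of each library.

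The fibrillar class held 74.2 ± 1.03% of collagen TPM (SD, n = 2), with 8 of its 11 genes at 1 TPM or more in both libraries and a class median of 15.03 and 16.63 TPM. Type III collagen, the fibre of soft and vascular connective tissue, led all collagens. Col3a1 (ENSMUSG00000026043, chr1:45311538-45349706), its only chain, had 336.53 TPM in replicate 1 and 313.56 TPM in replicate 2, from 31802 and 36584 expected counts. Col1a2 (ENSMUSG00000029661, chr6:4504814-4541544), the second chain of type I collagen, the main fibre of most connective tissue, had 109.69 and 111.23 TPM. Its partner Col1a1 (ENSMUSG00000001506, chr11:94936224-94953042) had 97.79 and 104.83 TPM. The chains of the type I trimer were thus close, with Col1a2 1.09-fold over Col1a1 (log2 ratio of Col1a1 over Col1a2 -0.13 ± 0.06, SD, n = 2), although the protein takes up more of the Col1a1 chain than of the Col1a2 chain. The intervals of these chains did not overlap in either library. Col3a1 was 3.21-fold over Col1a1 (log2 1.68 ± 0.14). That fold fell to a log2 of 0.98 when only transcripts of at least 2000 nt were counted, an alternative chosen after seeing the data.

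Col2a1 (ENSMUSG00000022483, chr15:97975602-98004695), the chain of cartilage collagen that is also known from notochord and neuroepithelium, had 72.37 and 72.81 TPM in replicates 1 and 2. It was the fourth of all collagens, and Col1a1 lay 1.39-fold over it. Type V chains, which start and limit the thickness of type I fibres, were lower: Col5a2 had 19.25 and 19.61 TPM and Col5a1 had 15.03 and 16.63 TPM. Col5a2 was 1.23-fold over Col5a1, with intervals apart in both libraries. The third type V chain, Col5a3, had 0.32 and 0.29 TPM, and Col5a1 was 39.3-fold over it on TPM + 0.1 and 12.9-fold on TPM + 1. Type XI, the counterpart of type V in cartilage fibres, had Col11a1 at 11.99 and 10.31 TPM. Of these, the coding transcript Col11a1-201 held 6.92 and 6.25 TPM. Col11a1-204, a 2570-nt transcript annotated for nonsense-mediated decay, held 4.96 and 3.78 TPM and is counted in the Col11a1 folds. The other type XI chain, Col11a2, had 0.40 and 0.95 TPM. Col11a1 was 15.5-fold over Col11a2, and Col2a1 100-fold over it, on TPM + 0.1 (7.34-fold and 44.5-fold on TPM + 1). The libraries differed here: Col11a1 was 24.2-fold over Col11a2 in replicate 1 and 9.91-fold in replicate 2, and Col2a1 was 145-fold and 69.4-fold over it. In replicate 1 the Col11a2 TPM of 0.40 lay below its own deposited interval of 0.504 to 1.553. On the quantifier's posterior mean TPM, the log2 fold over Col11a2 was 3.21 for Col11a1 and 5.89 for Col2a1, against 3.95 and 6.65. The Col11a2 values rest on 64 and 86 expected counts and on estimated effective lengths of 5949 and 2813 bases, so the TPM differ more between the libraries than the counts do. Col27a1, a minor fibrillar chain of cartilage and other tissues, had 1.47 and 1.74 TPM. Over transcripts of at least 2000 nt Col27a1 had 0.83 and 1.01 TPM, under the detection level in replicate 1. Col24a1, a minor chain known from bone, had 0.33 and 0.30 TPM.

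Markers of the cells that could carry these chains were read as summed levels, and their part in the collagen levels was not tested. All 12 mesenchyme and meninges markers reached 1 TPM in both libraries, with a sum of 259.5 and 234.2 TPM, led by Lum (133.65 and 119.32 TPM), Dcn (21.64 and 18.59 TPM) and Prrx2 (15.46 and 19.09 TPM). Of 9 cartilage markers, 4 reached 1 TPM, with a sum of 28.1 and 27.5 TPM. Hapln1 (16.82 and 15.80 TPM), Cnmd (6.12 and 6.14 TPM) and Epyc (3.88 and 4.26 TPM) led them, while Acan and Matn1, which define cartilage matrix, were listed at 0 in both libraries. All 9 neural progenitor markers and all 8 neuron markers were above 1 TPM. Their sums were 2585 and 2659 TPM for progenitors and 1612 and 1593 TPM for neurons. Vim alone held 1176.51 and 1174.55 TPM of the progenitor sum. Whether the markers of these lists are particular to their cell type was not tested. In bulk tissue, fewer cells of a type and less RNA per cell cannot be told apart.

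Type IV collagen, the second class by summed TPM, held 11.2 ± 0.85% of collagen TPM (SD, n = 2). Of its 6 chains, 3 reached 1 TPM in both libraries. The class median was 3.36 and 4.24 TPM. Col4a1 (ENSMUSG00000031502), a chain of the trimer found in nearly all basement membranes, had 65.06 and 69.43 TPM. Col4a2 (ENSMUSG00000031503), the other chain of that trimer, had 21.78 and 26.32 TPM. Col4a1 was 2.80-fold over Col4a2 (log2 1.49 ± 0.13, SD, n = 2), with intervals apart in both libraries. Col4a5, a chain of a more restricted type IV network, had 6.14 and 7.22 TPM, and Col4a1 was 9.96-fold over it. Col4a6, the partner of Col4a5 in smooth muscle and other basement membranes, had 0.58 and 1.26 TPM, with Col4a5 7.03-fold over it on TPM + 0.1 and 4.05-fold on TPM + 1. Col4a3 (0.08 TPM in both libraries) and Col4a4 (0.05 and 0.03 TPM), the chains of the glomerular and lung network, were near 0, from 19 and 20 and from 13 and 8 expected counts, and their intervals overlapped.

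The 3 type IV gene pairs each lie head to head. Col4a3 and Col4a4 were 71 bases apart on chromosome 1 and Col4a5 and Col4a6 1308 bases apart on chromosome X. The annotated first exons of Col4a1 and Col4a2 overlapped by 22 bases on chromosome 8, from a start at 11312826 on the minus strand and a start at 11312805 on the plus strand. The promoters of this pair are shown because a shared start region carried unequal levels. Each is 250 bases before to 50 bases after the RefSeq start on GRCm38.p6, the assembly also called mm10, and capitals mark matches, on either strand, to 3 common promoter motifs that are spelled out after the sequences.
Col4a1 promoter, chr8:11312777-11313076, minus strand: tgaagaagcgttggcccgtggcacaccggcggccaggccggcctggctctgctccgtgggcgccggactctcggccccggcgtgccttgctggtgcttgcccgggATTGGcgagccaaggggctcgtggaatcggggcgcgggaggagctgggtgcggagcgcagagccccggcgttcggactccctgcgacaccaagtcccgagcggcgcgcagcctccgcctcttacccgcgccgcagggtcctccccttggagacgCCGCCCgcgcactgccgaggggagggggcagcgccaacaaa
Col4a2 promoter, chr8:11312555-11312854, plus strand: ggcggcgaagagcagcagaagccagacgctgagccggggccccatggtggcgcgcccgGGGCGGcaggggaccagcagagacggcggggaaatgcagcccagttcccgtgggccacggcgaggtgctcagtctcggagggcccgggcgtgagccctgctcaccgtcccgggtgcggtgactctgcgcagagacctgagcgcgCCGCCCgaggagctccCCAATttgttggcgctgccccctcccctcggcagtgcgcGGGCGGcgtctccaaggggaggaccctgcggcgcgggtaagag
The windows share 78 bases (chr8:11312777-11312854). Neither holds the TATA box (TATAAA), a sequence found in 13.6% of all 32851 promoter entries and in 5 of the 38 entries of collagen genes, which belong to 35 members. Each holds 1 match to the CCAAT box, spelled as its name, at -145 from the Col4a1 start and at -32 from the Col4a2 start, while 37.4% of all entries and 13 of the 38 collagen entries hold one. Each also holds the same GC box (GGGCGG), at chr8:11312812-11312817, 10 bases into Col4a1 and 8 into Col4a2, and Col4a2 holds GC boxes at -192 and -48 besides. The GC box was in 35.7% of all entries and in 23 of the 38 collagen entries. Motif matches describe letters in these windows only. No source used here says whether counting used strand, so reads in the shared 22 bases cannot be assigned with certainty.

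**Figure D2:**
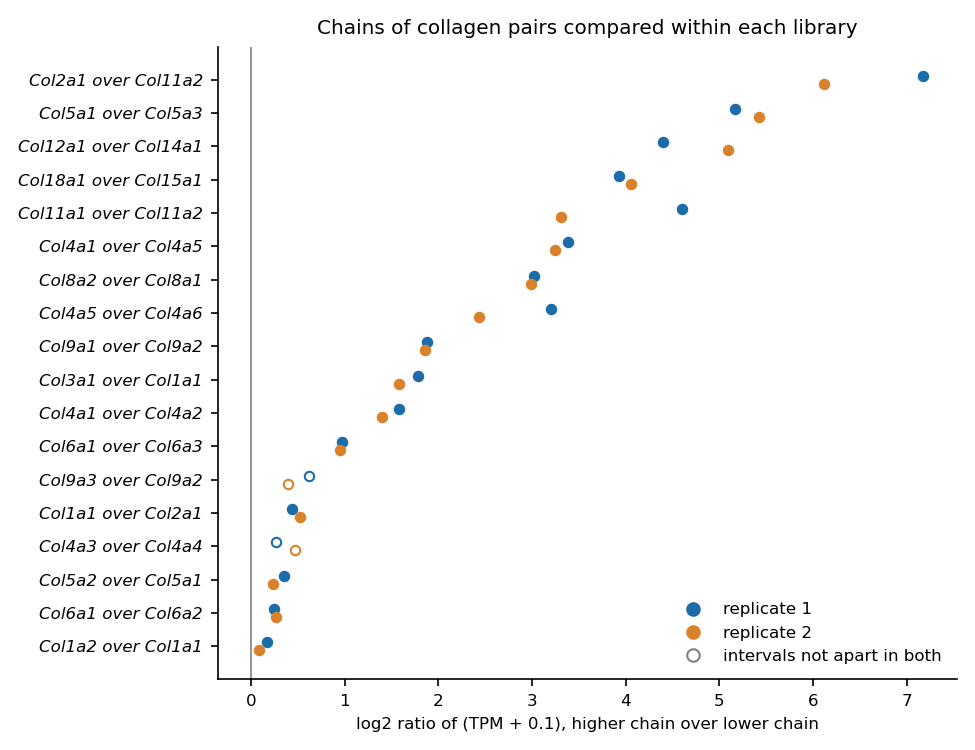
Log2 ratio of TPM + 0.1 of the higher over the lower chain for 18 pairs of collagen chains, in replicate 1 and replicate 2. Filled points mark the 16 pairs whose deposited intervals lay apart, the same way, in both libraries, and open points the Col9a3 and Col9a2 pair and the Col4a3 and Col4a4 pair, whose intervals did not.

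The other 27 collagen genes together held 14.7 ± 0.18% of collagen TPM, with 16 at 1 TPM in both libraries and a median of 2.05 and 1.85 TPM. Multiplexins, basement membrane collagens whose tail can be cut to anti-angiogenic fragments, were led by Col18a1 (ENSMUSG00000001435, chr10:77052178-77166548), the source of endostatin. The median of the 2 multiplexins was 18.71 and 20.39 TPM, above the fibrillar and type IV class medians. Col18a1 had 35.20 and 38.55 TPM, the sixth level of all collagens and above Col4a2. Its relative Col15a1, found near vessels and muscle, had 2.22 and 2.23 TPM, so Col18a1 was 15.9-fold over it on TPM + 0.1. Counted over transcripts of at least 2000 nt, Col15a1 had 0.78 and 0.77 TPM, under the detection level, and the log2 ratio grew to 5.39, against 3.99 over all transcripts. Of 10 endothelial markers 9 reached 1 TPM in both libraries, led by Cldn5 (21.79 and 23.37 TPM), Esam (19.16 and 22.74 TPM) and Kdr (21.39 and 18.81 TPM), with a sum of 131.7 and 132.2 TPM. Of 8 mural cell markers 7 did, led by Acta2 (28.09 and 27.66 TPM), Notch3 (14.66 and 15.79 TPM) and Pdgfrb (12.22 and 13.55 TPM), with a sum of 69.0 and 68.8 TPM.

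Col18a1 and Col9a1 each have a pair of annotated starts far apart, and nearly all of the RNA was assigned to 1 start of each gene. For Col18a1 the upstream start at 77166530 on chromosome 10 carried 99.2% and 99.5% of the gene's TPM in replicates 1 and 2, through the transcript Col18a1-202 of 1315 codons. The downstream start at 77113705, which gives a product of up to 1774 codons, carried 0% and 0.53%, from 0 and 31 expected counts. Col9a1, a chain of the fibre-attached type IX collagen, had 6.83 and 6.65 TPM, all of it from the downstream start at 24195203 on chromosome 1 with 541 and 630 expected counts. That transcript has 680 codons, and this short form was first described in chick cornea. The upstream start at 24177610, which gives the 921-codon form known from cartilage, had 0 counts in both libraries, where 3 counts would be 0.0772 and 0.0653 CPM, counts scaled to library size. The 50 bases before each start are shown, from RefSeq on GRCm38.p6, with matches to the same motifs in capitals.
Col18a1 upstream start, chr10:77166531-77166580, minus strand: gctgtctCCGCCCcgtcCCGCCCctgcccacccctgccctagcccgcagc
Col18a1 downstream start, chr10:77113706-77113755, minus strand: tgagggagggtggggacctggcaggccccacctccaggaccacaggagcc
Col9a1 upstream start, chr1:24177560-24177609, plus strand: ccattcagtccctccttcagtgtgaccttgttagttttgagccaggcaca
Col9a1 downstream start, chr1:24195153-24195202, plus strand: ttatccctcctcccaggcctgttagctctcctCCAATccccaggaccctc
The 50 bases before the used Col18a1 start held GC box matches and those before the used Col9a1 start a CCAAT match, and the 50 bases before the other starts held none of the motifs. The motif shares given above belong to whole promoter entries and not to windows of 50 bases. A link of these matches to start use was not tested.

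Collagens that attach to fibres (FACIT) held 3.46 ± 0.18% of collagen TPM, with 6 of 9 at 1 TPM in both libraries. Col12a1, a FACIT of tendon, fascia and embryonic mesenchyme, led them with 13.40 and 11.18 TPM. Its relative Col14a1, known from more mature fibres, had 0.54 and 0.23 TPM, and Col12a1 was 26.9-fold over it on TPM + 0.1 and 9.62-fold on TPM + 1. Over transcripts of at least 2000 nt the log2 fold was 4.03, against 4.75 over all transcripts. Among the type IX chains, which coat type II fibres, Col9a1 was 3.65-fold over Col9a2 (1.79 and 1.76 TPM). Col9a3 had 2.80 and 2.34 TPM, and its interval was apart from that of Col9a2 in replicate 1 alone. Col16a1, a FACIT of skin and smooth muscle, had 4.43 and 5.24 TPM, but 2.06 and 2.56 TPM over transcripts of at least 2000 nt. Col22a1, known from tissue junctions, had 1.83 and 1.85 TPM. Col20a1 (0.17 and 0.31 TPM) and Col19a1 (0.06 and 0.04 TPM) were low.

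Type VI collagen makes beaded filaments close to cells from the chains of Col6a1, Col6a2 and Col6a3. Col6a1 had 9.77 and 9.92 TPM, Col6a2 8.25 and 8.22 TPM, and Col6a3 4.94 and 5.11 TPM. Col6a1 was 1.19-fold over Col6a2 and 1.94-fold over Col6a3, with intervals apart in both libraries. The Col6a3 level rested largely on a 646-nt transcript with a retained intron, and over transcripts of at least 2000 nt Col6a3 had 2.15 and 2.11 TPM, with a log2 fold of Col6a3 over Col6a1 of -2.16, against -0.96 over all transcripts. The chains that can stand in for Col6a3 were near 0: Col6a6 had 0.12 and 0.11 TPM, Col6a4 0.01 and 0.06 TPM, and Col6a5 0.02 TPM in both libraries. In type VIII, the hexagonal network of vessels and cornea, Col8a2 had 7.28 and 6.97 TPM and Col8a1 0.81 and 0.79 TPM, an 8.03-fold difference on TPM + 0.1 and 4.51-fold on TPM + 1. Col10a1, the chain of hypertrophic cartilage, had 0.07 and 0.01 TPM.

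Among the transmembrane collagens, Col23a1 had 8.18 and 8.57 TPM, Col25a1, a neuronal collagen known for motor axon innervation of muscle, 2.59 and 2.25 TPM, and Col13a1, a collagen of neuromuscular junctions, 2.05 and 1.59 TPM. Col17a1, of the anchoring structures of skin epithelium, had 0.40 and 0.20 TPM. Col7a1, the anchoring fibril chain under skin, had 1.09 and 0.39 TPM, from 105 and 72 expected counts. Its estimated effective lengths were 3614 and 5799 bases, so the TPM differed more between the libraries than the counts did. Of 8 surface epithelium markers 6 reached 1 TPM in both libraries, with a sum of 26.5 and 28.6 TPM, led by Krt8 (7.69 and 8.47 TPM), Epcam (5.23 and 4.26 TPM) and Cdh1 (4.34 and 4.95 TPM), while Krt5, a basal skin keratin, had 0.39 and 0.27 TPM. Col26a1, a collagen of uncertain class, was the tenth of all collagens with 14.27 and 16.79 TPM, and Col28a1, known from peripheral nerve, had 0.03 and 0.02 TPM.

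In the order of the 27 detected genes, 10 of 26 neighbouring pairs had intervals apart in both libraries. They included each step from Col3a1 through Col1a2, Col1a1, Col2a1, Col4a1, Col18a1, Col4a2 and Col5a2 to Col5a1. Below Col5a1, Col6a1 over Col23a1 and Col16a1 over Col9a3 were the neighbours apart in both. The other neighbours could not be ordered from these intervals in both libraries. In replicate 1 the Col16a1 TPM of 4.43 lay below its own interval (4.59 to 7.23) and inside that of Col9a3 (2.80 to 4.46). Over transcripts of at least 2000 nt, Col16a1 had 2.06 and 2.56 TPM and Col9a3 2.80 and 2.16 TPM in replicates 1 and 2. The order of this pair was thus reversed in replicate 1.

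Gene levels were split further into transcripts. All 27 detected genes had more than 1 annotated transcript, 25 had the same leading transcript in both libraries, and 23 had a transcript above 50% of the gene's TPM in both. In 14 the leading transcript held at least 90% in both, among them Col1a1-201 (99.6% and 99.5%), Col1a2-201 (95.9% and 96.5%), Col4a1-201 (100% and 99.8%) and Col5a1-201 (100% in both). For Col3a1, the full-length Col3a1-201 (5564 nt) held 59.9% and 62.2% of TPM but 92.7% and 93.3% of expected counts. The 737-nt Col3a1-205 held 39.7% and 36.9% of TPM from 2280 and 2361 counts. Counted over transcripts of at least 2000 nt, Col3a1 had 201.68 and 195.26 TPM and remained the highest collagen, while Col4a1 (65.06 and 69.26 TPM) passed Col2a1 (61.83 and 63.00 TPM). In 5 of the 27 genes the leading transcript in replicate 1 was under 2000 nt (Col12a1, Col6a3, Col16a1, Col15a1 and Col13a1). Long transcripts held under 80% of TPM in a library for 8 genes, but over 80% of counts in both libraries for 25.

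**Figure D3:**
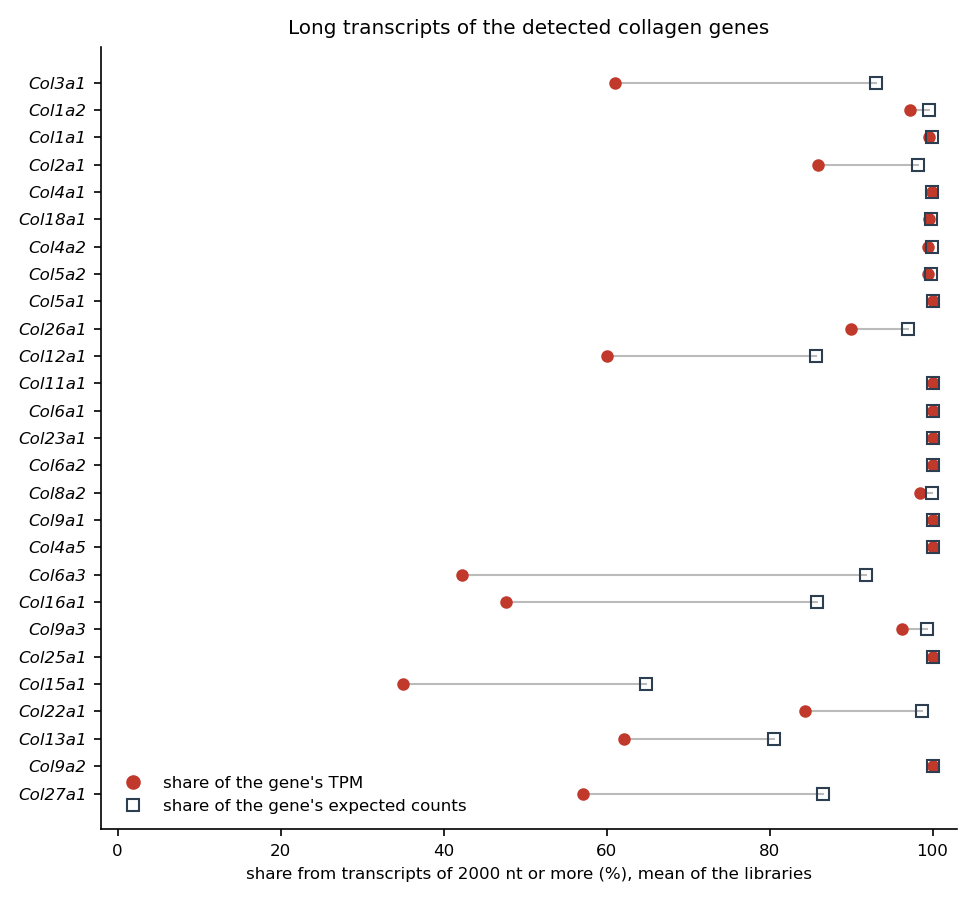
Share of each detected collagen gene's TPM (filled circles) and of its expected counts (open squares) that came from transcripts of at least 2000 nt, as the mean of the libraries in percent. The shares coincide near 100% for most genes and part by more than 10 percentage points for Col3a1, Col2a1, Col12a1, Col6a3, Col16a1, Col15a1, Col13a1, Col22a1 and Col27a1.

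Col2a1 is made in a form with exon 2, known as type IIA and found in precursors of cartilage and outside it, and a form without, type IIB, made by mature chondrocytes. Exon 2 codes for a cysteine-rich domain before the helix. It is shown because it is the only whole exon that separates the leading transcripts, with its 10 cysteine codons in capitals, as annotated in GENCODE M21.
Col2a1 exon 2, chr15:98000403-98000606, minus strand, mm10: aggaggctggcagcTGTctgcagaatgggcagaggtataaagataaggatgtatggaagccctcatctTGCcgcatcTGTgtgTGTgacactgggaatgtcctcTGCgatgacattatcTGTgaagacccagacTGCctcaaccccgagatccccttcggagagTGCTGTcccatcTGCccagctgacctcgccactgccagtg
Col2a1-201, which holds these 204 bases, had 43.84 and 42.16 TPM, and Col2a1-202, which lacks them, had 17.99 and 20.84 TPM. The form with exon 2 thus made up 70.9% and 66.9% of the pair in replicates 1 and 2, and was the higher of the forms in each library. Each value is the authors' estimate for transcripts that share most of their sequence, and its error within a library is not given here.

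The machinery that makes and uses collagen was read from 6 lists with 56 genes, of which 45 reached 1 TPM in both libraries, beside 27 of the 44 collagen genes and 58.2% of protein-coding genes. Prolyl and lysyl hydroxylation stabilise the helix and prepare crosslinks. All 15 genes of the list under that name were above 1 TPM, with a median of 16.74 and 18.12 TPM. The list also holds genes that are not hydroxylases, such as Ppib. P4hb, a subunit of prolyl 4-hydroxylase and a disulfide isomerase, had 383.44 and 385.40 TPM, Ppib, a cyclophilin, 346.43 and 358.30 TPM, and P4ha1, the catalytic subunit, 35.05 and 32.20 TPM. All 10 genes of folding and secretion were above 1 TPM (median 51.20 and 47.63 TPM). They were led by Sparc, a collagen-binding matrix protein (306.43 and 322.76 TPM), Serpinh1, the collagen chaperone Hsp47 (142.89 and 150.57 TPM), and Kdelr2, a receptor that returns proteins to the endoplasmic reticulum (143.84 and 142.42 TPM).

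Propeptide processing was uneven, with 4 of 8 genes at 1 TPM in both libraries and a median of 1.01 and 1.10 TPM. Pcolce, an enhancer of C-propeptide cleavage, had 44.52 and 43.12 TPM, Bmp1, the C-proteinase, 15.63 and 18.40 TPM, and Adamts3, an N-proteinase, 2.30 and 3.05 TPM. Adamts2, the main N-proteinase of skin type I collagen, had 0.55 and 0.67 TPM. Of 6 crosslinking genes 5 were detected (median 8.24 and 8.50 TPM), led by Pxdn, the peroxidasin that crosslinks type IV collagen, with 45.42 and 47.26 TPM. The lysyl oxidases Lox (11.70 and 9.78 TPM) and Loxl2 (9.04 and 9.42 TPM) followed, and Loxl4 had 0.09 and 0.19 TPM.

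Of 11 collagen receptors 7 were detected (median 4.20 and 4.17 TPM). Itgb1, the shared beta chain of collagen-binding integrins and of many others, had 143.07 and 127.26 TPM, and Adgrg1, the receptor for type III collagen at the pial surface of the developing brain, had 90.10 and 94.75 TPM. Ddr1, a collagen-activated kinase, had 57.42 and 69.89 TPM. Of 6 collagenases and gelatinases 4 were detected (median 3.83 and 3.37 TPM), led by Mmp14 (40.35 and 41.93 TPM), Mmp2 (38.66 and 33.06 TPM) and Ctsk, a collagen-cutting cathepsin (6.21 and 5.17 TPM), while Mmp8 was listed at 0 in both libraries and Mmp13 had 0.03 and 0.00 TPM.

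**Figure D4:**
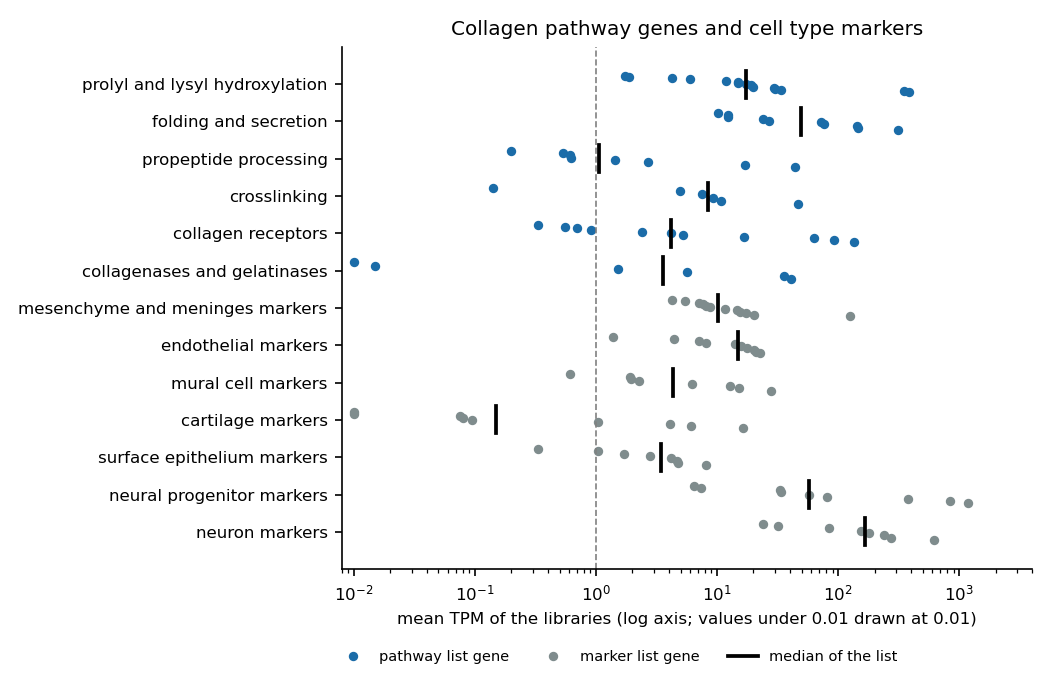
Mean TPM of the libraries (log axis) for each gene of 6 collagen pathway lists and 7 cell type marker lists, with a bar at the list's median. Genes of the hydroxylation and folding lists all lie right of the dashed line at 1 TPM. Cartilage markers have the lowest median, 0.13 and 0.17 TPM in replicates 1 and 2.

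A comparison of the replicates measures the spread between the pools and no condition. In replicate 2 against replicate 1, 2 of 39 collagen genes tested passed an exact binomial test on expected counts with an absolute log2 ratio of at least 1, where 2.80% of all genes tested did (481 of 17148). Both were low members. Col4a6 was higher in replicate 2, at 264 counts, against 101 in replicate 1 (log2 ratio 1.13, Benjamini-Hochberg adjusted p = 6.3e-11, exact binomial test). Col14a1 was lower in replicate 2, at 34 counts, against 78 in replicate 1 (log2 ratio -1.42, Benjamini-Hochberg adjusted p = 5.7e-06, exact binomial test). The binomial test allows for counting error alone. With an assumed coefficient of variation of 0.1 between samples, edgeR's exact test gave adjusted p = 0.0040 for Col4a6 and 0.0124 for Col14a1. The other 5 collagen genes had summed counts under 20 and were not tested.

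Without the minimum ratio, 16 of the 39 collagen genes passed, against a background of 34.9% of all genes tested. Among the detected members, 9 of 27 had deposited intervals that did not overlap between the libraries, where 22.4% of all 13895 detected genes did. Col4a2 had 26.32 TPM in replicate 2 and 21.78 TPM in replicate 1 (log2 count ratio 0.29), and Col4a1, Col4a5, Col1a1, Col5a1 and Col18a1 were also higher in replicate 2 with intervals apart. Col3a1 had 313.56 TPM in replicate 2 and 336.53 TPM in replicate 1, and Col12a1 and Col11a1 were also lower in replicate 2 with intervals apart. The mesenchyme and meninges markers had a median log2 ratio of -0.14, replicate 2 over replicate 1, with 0 of 12 past the binomial test and its minimum ratio. Without the minimum ratio, 5 of the 12 passed the binomial test (Lum, Postn, Pdgfra, Dcn and Ogn), all lower in replicate 2, and none was higher. Of all 17148 genes tested, 2908 passed in this way as lower in replicate 2 and 3082 as higher. Such differences were not particular to mesenchyme. Of 8 neuron markers 5 passed as lower and 1 as higher, and of 9 neural progenitor markers 0 passed as lower and 4 as higher. The part of tissue makeup in these differences was not tested. Over the 27 detected members the coefficient of variation of TPM had a median of 4.91%, with a range of 0.258% for Col6a2 to 17.9% for Col13a1, against a median of 5.85% over all detected genes. For Col13a1 the counts differed little, at 110 in replicate 1 and 126 in replicate 2 (log2 ratio -0.05). Its estimated effective lengths were 2007 and 2471 bases.

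**Figure D5:**
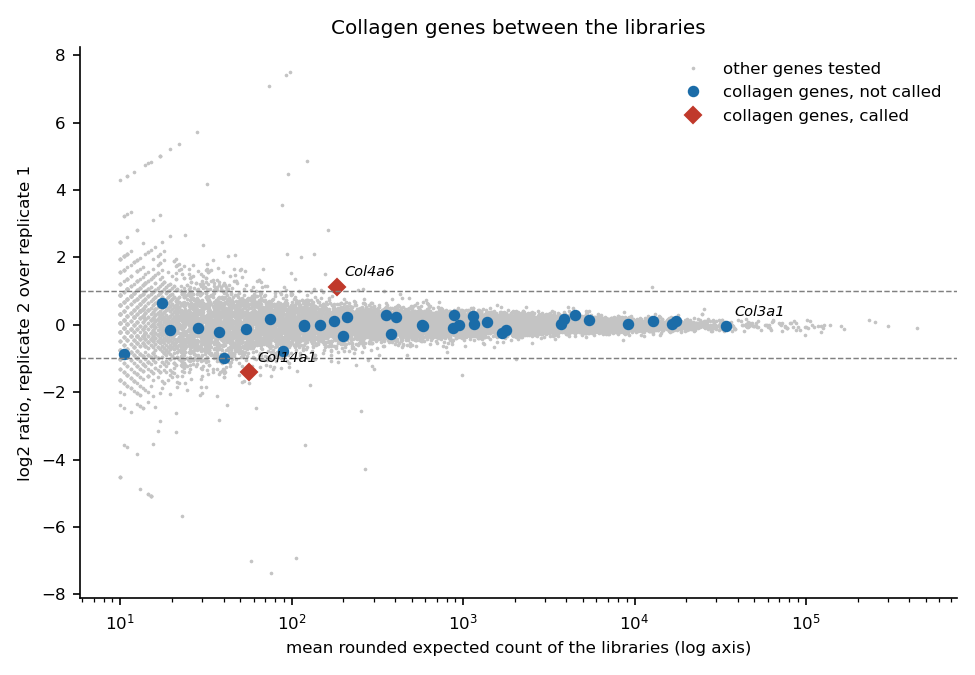
Log2 ratio of replicate 2 over replicate 1 against the mean expected count of the libraries (log axis) for 17148 genes, with 39 collagen genes marked and dashed lines at a log2 ratio of 1 and -1. Col4a6 and Col14a1 (diamonds) lie outside the lines among genes of low count, and members of high count such as Col3a1 lie near 0.

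Collagen genes also lie close to each other in the genome. Within 200000 bases and with no coding gene between them, 15 members formed 8 neighbouring pairs, and several pairs differed widely in level. Col3a1 and Col5a2 lie tail to tail 24614 bases apart on chromosome 1 at mean levels of 325 and 19.4 TPM, and Col9a1 and Col19a1 lie tail to tail 9205 bases apart at 6.74 and 0.05 TPM. The neighbours Col6a1 and Col6a2 on chromosome 10 were close, at 9.85 and 8.24 TPM. In 12 members an exon overlapped another annotated gene, in 10 of them on the opposite strand, and 6 of these (Col5a1, Col9a3, Col15a1, Col4a1, Col4a2 and Col22a1) were among the 27 detected, so their reads could include the overlapping gene.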

How the data were processed

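Total RNA-seq tables of 2 midbrain libraries were used. Per the labels' protocols, RNA was extracted with a mirVana kit and a Smart-seq protocol is cited. The build is mm10 and the annotation M4, per the deposited notes. No source used here names the aligner, the quantifier or the use of strand. Per the file headers, the authors deposited an expected count that need not be whole, a TPM, a posterior mean TPM and an FPKM for genes and transcripts. The deposited interval bounds of TPM were read as a signal with no fixed total, at a level that no source used here states. The authors also deposited, as a percent, how much of a gene's TPM each transcript holds. The deposited TPM are scaled over all rows, and spike-ins hold 15.2% and 14.8% of them, which lowers every gene alike. For 1 detected collagen gene in each library the TPM lay outside its interval, since the intervals belong to the posterior mean. These were Col16a1 in replicate 1 and Col15a1 in replicate 2. Counting members that were not detected, this held for 4 in replicate 1 and 2 in replicate 2. Col11a2 was among them in replicate 1 and Col7a1 in replicate 2.

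The members, classes, pairs and lists were chosen with earlier results of these data known. Every collagen gene could be named, and the 3 highest of each list beside members under 1 TPM. Symbols and coordinates came from GENCODE M21 on the same assembly (42462 of 43346 identifiers matched), and promoters from RefSeq. Beside the genes, the tables held 96 ERCC rows, 1 phiX row and 26248 rows with numeric identifiers, left out of tests. Detection was set at 1 TPM in both libraries, and folds were taken on TPM + 0.1. Expected counts were rounded, and the replicates were compared, 2 over 1, by an exact two-sided binomial test against TMM-scaled library sizes (edgeR 4.0.16, R 4.3.3), for genes whose counts summed to 20 or more, with a call at a Benjamini-Hochberg p under 0.05 and a log2 ratio of at least 1 in size. The p-values compare these libraries and not conditions. The test was also run on simulated data for replicate 2 against replicate 1 with 17172 genes tested. There, 99% of 100 genes changed 3-fold and 100% of 100 changed 8-fold were called, with 0 false calls under sampling noise alone. The changed genes were drawn from those with an expected summed count of at least 100. Recovery of genes with lower counts was not measured. Alternatives were scaling by total counts, by spike-ins or by DESeq2 1.42.0, FPKM, other thresholds, and each replicate left out. Scripts ran in Python 3.11.15 with pandas 2.3.3, scipy 1.17.1, matplotlib 3.10.9 and numpy 2.4.6.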

Additional observations from a re-analysis of the deposited data

How the results depend on the processing

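The count of 27 detected collagen genes ranged from 23 at 2 TPM to 29 at 0.5 TPM, with 25 over transcripts of at least 2000 nt, and was 28 without either replicate. The 16 pairs with intervals apart became 12 by a fold of 1.5, and 16 and 17 when a replicate was left out. Class medians of log2(TPM + 1) moved by more than the replicate SD under several settings. The fibrillar median was 4.07, and became 4.29 with TPM rescaled over genes, 3.49 in FPKM and 5.28 over detected members. The type IV median was 1.93, and became 1.53 in FPKM, 4.64 over detected members and 1.35 on log2(TPM + 0.1). The median of the other classes was 1.56, and became 1.65 with posterior mean TPM, 1.72 rescaled, 1.17 in FPKM, 2.78 over detected members, 1.03 on log2(TPM + 0.1) and 1.35 over transcripts of at least 2000 nt. The fibrillar median was the highest of these under each setting run. Without a replicate the medians ranged from 4.003 to 4.14, 1.75 to 2.11 and 1.51 to 1.61. Between the libraries, Col4a6 and Col14a1 were the calls under each setting with a minimum ratio, and 16 members were called without it. That comparison needs both libraries, so no replicate could be left out. The lists had 50 and 40 genes at 0.5 and 2 TPM, against 45, and 17 of the 23 genes with a transcript above 50% lay at 5 TPM or more. No paired analysis was possible because there is 1 group. 17 members were under 1 TPM in at least 1 library, Col4a3 on 19 and 20 counts, and 2 libraries give no test over samples.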
